A study of Mus musculus with 3 samples.

Results

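The regions described here are the autosomal megabases in which YY1 peaks were sparsest. Chromosomes 1 to 19 of mm9 were cut into bins of 1 Mb, each peak of the second YY1 ChIP sample (replicate 2) was put in a bin by its midpoint, and the 10% of bins with the fewest peaks were taken. Bins with no peak and the last bin of each chromosome were dropped, which left 2398 megabases, and 239 of these are the sparse megabases. They make up 9.97% of the kept megabases and held 4861 of 108742 replicate 2 peaks (4.47%). The regions were thus chosen by their replicate 2 counts, so these counts are a description and carry no test. The counts of the first ChIP sample (replicate 1) took no part in the choice and are the check. Of its peaks in kept megabases, 42.6% overlapped a replicate 2 peak, so the check is not independent of the choice.

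YY1 is a zinc-finger transcription factor that binds a short DNA motif. It is known to activate or repress genes according to context, to be expressed in most cell types, and to sit at many active promoters and enhancers, some of which it can bring together in loops. Genes and regulatory elements are spread unevenly along mammalian chromosomes, and long gene-poor stretches, arrays of duplicated genes and gaps in the assembly are known in the mouse genome. Which genes lie in the sparse megabases was not analysed here, because the gene table at hand belongs to another build than the peak lists. For the same reason no sequence is shown.

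Both ChIP samples come from C57BL/6 mouse embryonic stem cells that carry a green fluorescent reporter driven by Nkx2.5, a homeodomain factor of early heart cells. The cells were differentiated as embryoid bodies for 6 days, and the fluorescent cells, taken as cardiac progenitor cells (CPCs), were sorted separately for the 2 samples. The CPC identity thus rests on 1 reporter, the stem cells had been grown on mouse feeder cells, and the peak lists hold no marker expression that would check the label. An anti-YY1 antibody was used for both, and the 1 input sample was not analysed here. Replicate 1 had 3691 peaks and replicate 2 had 115109, of which 3421 and 108742 lay in kept megabases. No read totals entered the work, which leaves the depth behind a peak unknown, and confidence intervals cover counting error alone.

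Replicate 2 peaks in the sparse megabases numbered 2 to 26 per megabase, with a median of 22 and a mean of 20.3 ± 4.97 (SD, n = 239 megabases). The other 2159 megabases held 26 to 111 replicate 2 peaks, with a median of 46 and a mean of 48.1 ± 14.4. The histogram of replicate 2 counts shows that the sparse megabases are the lower flank of a single broad distribution. The threshold fell within a tie, since 27 megabases had 26 replicate 2 peaks and 19 of them were taken by chromosome order. The last 3 megabases inside, from 67000001 and from 93000001 on chromosome 7 and from 5000001 on chromosome 9, had 0 replicate 1 peaks each. The first 3 outside, from 6000001 on chromosome 9, 34000001 on chromosome 10 and 3000001 on chromosome 11, had 1, 4 and 1 replicate 1 peaks. All 6 had the same replicate 2 count of 26, so only the order of the chromosomes separates them.

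**Figure D1:**
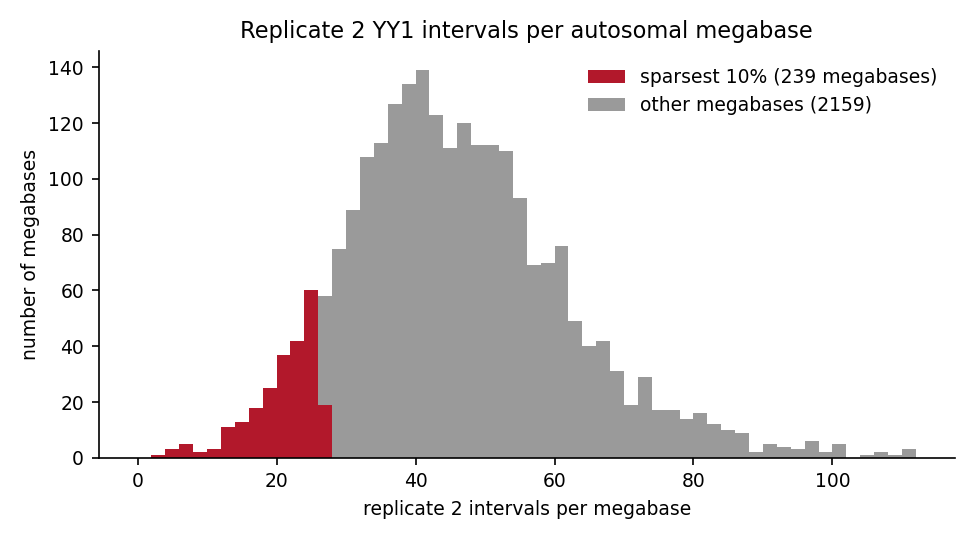
Number of autosomal megabases (y axis) by their count of replicate 2 YY1 peaks (x axis, steps of 2), with the 239 sparse megabases in red and the other 2159 stacked above them in grey. The sparse megabases run from 2 to 26 peaks and form the left flank of the distribution.

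The megabase with the fewest peaks was 20000001 to 21000000 on chromosome 8, with 2 replicate 2 peaks and 1 replicate 1 peak. It was followed by 85000001 to 86000000 on chromosome 1, 175000001 to 176000000 on chromosome 2 and 57000001 to 58000000 on chromosome 8, each with 5 replicate 2 peaks and with 0, 1 and 0 replicate 1 peaks. The next, 176000001 to 177000000 on chromosome 2, had 6 and 1. These counts are all far below the median of the sparse megabases. Some of the emptiest lay beside megabases with no replicate 2 peak at all. Beyond the first 3 Mb of each chromosome there were 8 such megabases, namely 86000001 to 87000000 on chromosome 1, 6 in a row from 40000001 to 46000000 on chromosome 7, and 21000001 to 22000000 on chromosome 8. Replicate 1 had 0 peaks in these 8 too, and 5 sparse megabases bordered on them.

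Most sparse megabases, 210 of the 239, held no stretch of over 300 kb without a replicate 2 peak. The longest stretch without a replicate 2 peak inside a sparse megabase had a median of 187 kb (interquartile range 148 to 236 kb, highest 979 kb), and in the other megabases it had a median of 104 kb. A stretch of over 300 kb was found in 29 of the 239 sparse megabases (12.1%), against 1.58% of all kept megabases. The choice by low counts bears on this share, so nothing is read from it. When the longest stretch was left out of each megabase, replicate 2 had a median of 26.9 peaks per Mb in the rest of the sparse megabases and 51.5 in the rest of the others. The choice bears on these 2 values as well. When stretches were followed across the edges of megabases, the longest that reached into a sparse megabase ran from 39294596 to 46411080 on chromosome 7, or 7.12 Mb, and took in the 6 megabases without a peak. The next were 20023442 to 22064599 on chromosome 8 (2.04 Mb), 85340745 to 87378653 on chromosome 1 (2.04 Mb) and 56177609 to 57979424 on chromosome 8 (1.80 Mb). Replicate 1 had 1 peak in that from 20023442 on chromosome 8 and 0 in the other 3. The stretch after these in length, 15209453 to 16404796 on chromosome 7 (1.20 Mb), held 3 replicate 1 peaks, with 0 in its part inside the sparse megabase. Over all 29 long stretches within sparse megabases, 13.8 Mb in total, replicate 1 had 11 peaks, or 0.798 per Mb (95% exact Poisson interval 0.398 to 1.43). Of these 11, 5 lay in the single megabase from 74000001 on chromosome 13. Without it, picked out as the largest count, the rate was 0.445 per Mb (0.163 to 0.969). The rest of all 29 megabases, that one included, had 27 replicate 1 peaks in 15.2 Mb, or 1.78 per Mb (1.17 to 2.58). That interval overlaps the one over all 29 stretches. The stretches were defined by having no replicate 2 peak, so shared replicate 1 peaks fall largely in the rest. The definition thus bears on these rates, and they were not tested. Whether these stretches are gaps of the assembly or sequence to which reads cannot be placed was not tested.

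**Figure D2:**
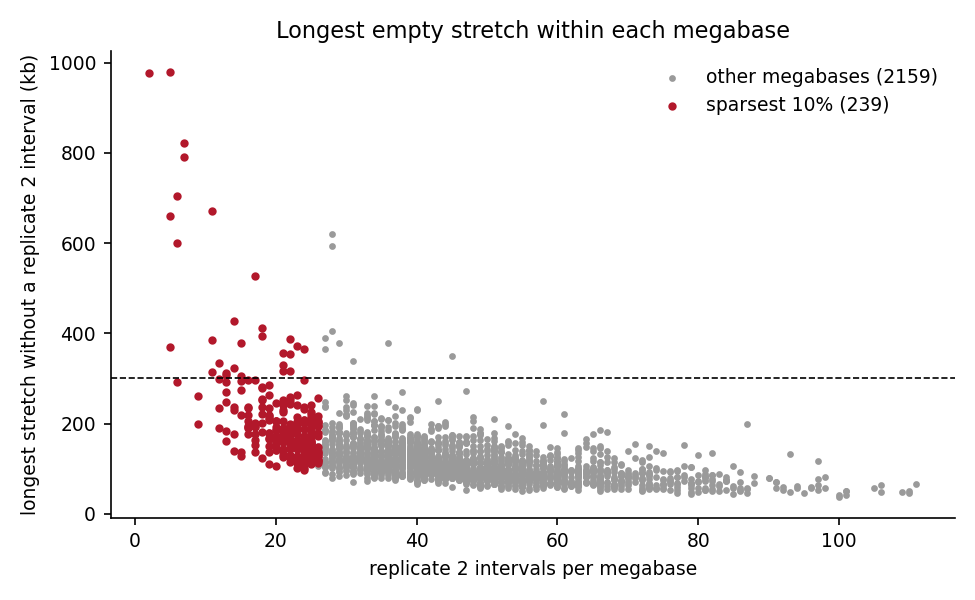
Longest stretch without a replicate 2 peak in each megabase (y axis, kb) against its count of replicate 2 peaks (x axis), with sparse megabases in red, the others in grey and 300 kb as the dashed line. 29 sparse megabases lie above the line, and 210 lie below it.

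Sparse megabases were found on all 19 autosomes, in unequal shares. Chromosome 7 had the most, 33 of its 143 kept megabases (23.1%), followed by chromosome 17 with 14 of 92 (15.2%) and chromosome 13 with 16 of 117 (13.7%). Chromosome 12 had the fewest, 3 of 118 (2.54%), and chromosome 14 had 5 of 122 (4.10%). The median replicate 2 count over all megabases of a chromosome was 41 on chromosome 7, which is the lowest value and is also that of chromosomes 3, 15 and 16. It was 47 on chromosome 17 and 43 on chromosomes 12, 13 and 14.

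Many sparse megabases lay side by side. Of the 239, 133 adjoined another sparse megabase and 106 stood alone, and together they formed 155 separate stretches, of which 8 were at least 4 Mb long. The longest ran over 7 Mb on chromosome 17 from 17000001 to 24000000. From its start onward the megabases had 22, 20, 20, 16, 18, 15 and 19 replicate 2 peaks and 1, 1, 0, 3, 1, 0 and 2 replicate 1 peaks. The megabases just before and after had 39 and 47 replicate 2 peaks, so counts rose to near the autosomal median of 44 within 1 Mb. A stretch of 6 Mb on chromosome 7 from 10000001 to 16000000 had 22, 22, 15, 20, 16 and 7 replicate 2 peaks and 0, 1, 1, 2, 0 and 1 replicate 1 peaks, with 28 replicate 2 peaks in the megabase on either side. The 5 Mb on chromosome 7 from 65000001 to 70000000 had 22 to 26 replicate 2 peaks per megabase, and 7 of their 9 replicate 1 peaks lay in a single one. The 5 Mb on chromosome 17 from 36000001 to 41000000 had 15 to 24 replicate 2 peaks per megabase and 7 replicate 1 peaks, at most 2 in each. Of the 4 stretches of 4 Mb, that on chromosome 7 from 21000001 to 25000000 was the emptiest in replicate 2, with 13, 15, 14 and 17 peaks. It held 7 replicate 1 peaks, and the megabase after it had 81 replicate 2 peaks. The other 3 were on chromosome 1 from 5000001 to 9000000 (91 replicate 2 and 5 replicate 1 peaks) and from 110000001 to 114000000 (77 and 3), and on chromosome 13 from 65000001 to 69000000 (92 and 5). One stretch of 3 Mb, on chromosome 16 from 18000001 to 21000000, had 25, 21 and 22 replicate 2 peaks and 0 replicate 1 peaks in each, and was picked out after its values were seen. In these stretches replicate 1 had 0 to 7 peaks per megabase, and the stretches were not ranked by it.

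Replicate 1, whose own list had no part in the choice, also had fewer peaks in the sparse megabases, and the lower count lay in peaks shared with replicate 2. It had 255 peaks in the 239 sparse megabases, or 1.07 ± 1.15 per megabase (SD), and 3166 in the 2159 others, or 1.47 ± 1.52. Single megabases overlapped widely, with 0 to 7 replicate 1 peaks in the sparse and 0 to 29 in the other ones, and the median was 1 in both. The density in the sparse megabases was 0.728 times that in the others (95% exact interval 0.638 to 0.827, exact conditional test of 2 Poisson rates, two-sided, p = 3.67e-07, 9.16e-07 after Benjamini-Hochberg adjustment over 5 tests of this kind). Replicate 1 counts spread more than Poisson counts, with a variance of 1.23 times the mean in the sparse and 1.58 times in the other megabases. A quasi-Poisson model that allows for this gave the same ratio with a wider interval (0.621 to 0.853). The tests set places of 1 peak list against each other, and the variation from one culture to another is not in them. Part of the replicate 1 peaks also mark places that the choice counted. Of the 255 peaks in sparse megabases, 40 overlapped a replicate 2 peak, against 1416 of the 3166 in the others. Peaks without such an overlap were not less dense in the sparse megabases, and they were not tested apart. The density tests here are thus not a check free of the choice.

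Of the sparse megabases, 84 had no replicate 1 peak, or 35.1% (95% exact binomial interval 29.1 to 41.6%), against 26.2% of all kept megabases and 25.2% (23.4 to 27.1%) of the pooled others. In the opposite view, replicate 2 had a mean of 42.6 ± 15.3 peaks (SD) in the 628 megabases without a replicate 1 peak and of 51.8 ± 18.7 in the 144 with 4 or more. When the megabases were ordered by replicate 2 count and cut into 10 groups, the mean replicate 1 count was lowest in the sparse group and highest in the densest one, at 1.89 per megabase, but it did not rise at each step. The share of megabases without a replicate 1 peak was 25.9 to 31.8% from the second to the fifth group, and their intervals overlapped that of the sparse group. The second group, with 26 to 32 replicate 2 peaks, had 1.35 ± 1.17 replicate 1 peaks per megabase. The sparse megabases had 0.792 times that density (95% exact interval 0.669 to 0.936, exact conditional test, p = 0.00596, adjusted 0.00993). Peaks shared with replicate 2 are in the replicate 1 counts of all 10 groups. The choice thus bears on this test and on the shares above. From the second to the fifth group, where mean replicate 2 counts went from 29.5 to 41.7, mean replicate 1 counts lay between 1.23 and 1.35 and their intervals overlapped. That of the fifth group (1.09 to 1.38 around 1.23) also overlapped that of the sparse megabases (0.940 to 1.21), and only the second group was tested against them.

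**Figure D3:**
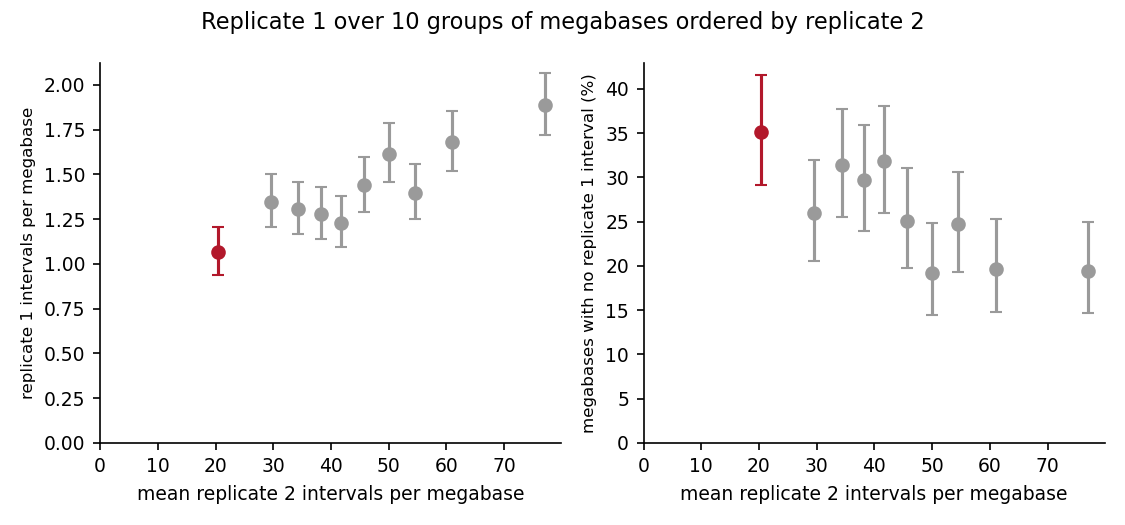
Mean number of replicate 1 peaks per megabase (left, 95% exact Poisson intervals) and share of megabases with no replicate 1 peak (right, 95% exact binomial intervals) for 10 groups of megabases, placed on the x axis by their mean replicate 2 count. The sparse group, in red, has 1.07 replicate 1 peaks per megabase and 35.1% of megabases without one.

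Among the sparse megabases, no further difference in replicate 1 density was found. The 29 with a stretch of over 300 kb had 1.31 ± 1.79 replicate 1 peaks and the 210 without had 1.03 ± 1.03, a ratio of 1.27 (95% exact interval 0.874 to 1.80, exact conditional test, adjusted p = 0.224). Those that adjoined another sparse megabase had 1.01 ± 1.13 and those that stood alone 1.14 ± 1.17, a ratio of 0.883 (0.685 to 1.14, adjusted p = 0.344 in the exact test). Both intervals include 1, and they allow ratios of up to 1.80 and down to 0.685. The lower replicate 1 density was also there without the long stretches, since the 210 sparse megabases without one had 0.706 times (0.612 to 0.810) the density of the 2150 other megabases without one (exact conditional test, adjusted p = 9.16e-07). Peaks shared with replicate 2 are in these counts too, so the choice bears on this ratio as well. On 18 of the 19 autosomes replicate 1 was less dense in the sparse megabases than in the others. The exception was chromosome 6, where 13 sparse megabases had 1.69 replicate 1 peaks each and the others 1.52. The lowest ratio was that of chromosome 15, at 0.311, and rests on 3 replicate 1 peaks in 6 sparse megabases. Single chromosomes were not tested.

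Counts beside the sparse megabases are a description for replicate 2, since every neighbour that is not sparse has at least 26 replicate 2 peaks by the rule. Replicate 2 counts averaged 39.8 ± 10.6 (SD) in the 271 megabases next to a sparse one, 44.5 ± 12.8 at 2 Mb, 47.8 ± 13.7 at 4 to 5 Mb and 51.3 ± 15.1 in the 790 megabases over 10 Mb away. Replicate 1 had 1.39 peaks per megabase (95% exact Poisson interval 1.25 to 1.54) next to a sparse megabase and 1.52 (1.43 to 1.61) over 10 Mb away. These intervals overlap, whereas that of the sparse megabases themselves (0.940 to 1.21) lies below both. Peaks shared with replicate 2 are in these counts, so the choice bears on the replicate 1 values as well.

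**Figure D4:**
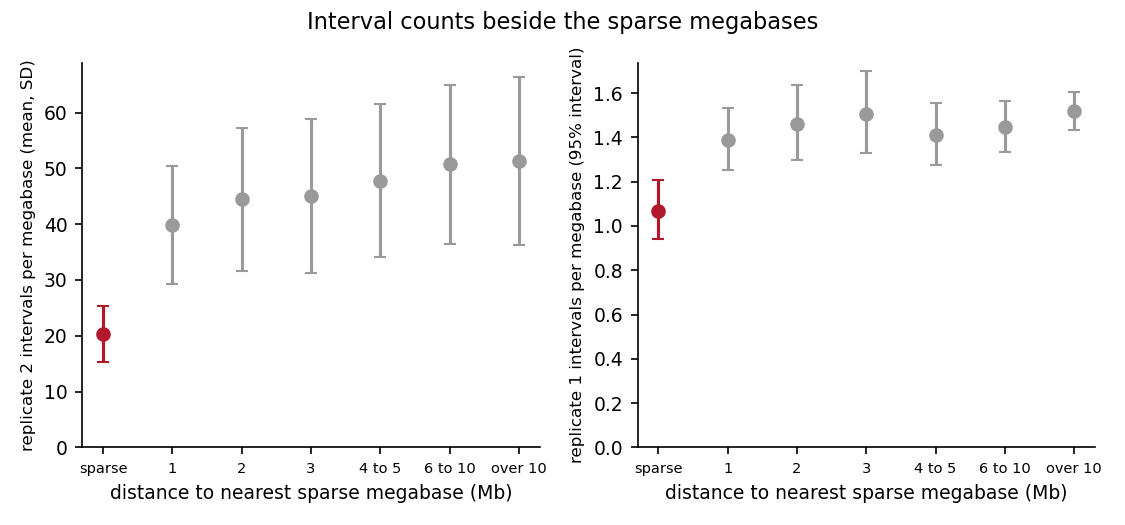
Replicate 2 peaks per megabase (left, mean with SD over megabases) and replicate 1 peaks per megabase (right, mean with 95% exact Poisson interval) by distance to the nearest sparse megabase on the same chromosome, in Mb. Replicate 2 goes from 39.8 next to a sparse megabase to 51.3 over 10 Mb away, while replicate 1 stays between 1.39 and 1.52.

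The highest quartile of replicate 1 scores had the lowest density ratio of the 4 score quartiles. It was also the one most often shared with replicate 2, with 66.1% of its peaks in the other megabases against 31.3% in the lowest quartile. The choice by low replicate 2 counts thus bears on these ratios, and the tests below do not separate score from sharing. The score is that of the peak caller MACS, as the authors deposited it, and a higher one marks a stronger call within a list. In the highest quartile of replicate 1 scores (96.38 to 3149.52), 45 peaks lay in the sparse megabases and 813 in the others, a density ratio of 0.50 (95% exact interval 0.362 to 0.675, exact conditional test, p = 3.30e-06 after adjustment over the 4 quartiles). From the lowest quartile upward the other ratios were 0.781 (0.60 to 1.0), 0.922 (0.722 to 1.16) and 0.719 (0.547 to 0.929), with adjusted p of 0.0693, 0.530 and 0.0202 in the exact test. The ratio of the highest quartile was 0.620 times that of the other 3 quartiles together (0.806), and this difference was tested by Fisher's exact test on the 4 counts (two-sided, p = 0.00422, also 0.00422 after adjustment over 2 such tests). None of the 13 replicate 1 peaks with a score of 1000 or more in kept megabases lay in a sparse one. A count of 0 among the 255 peaks there allows a share of up to 1.18%, taken as 3 counts of the total, or 1.44% as the upper 95% exact binomial bound. The share in the other megabases, 0.411%, is below both, so a difference was not detectable.

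By width, the narrowest quartile had the lowest ratio and was again the one most often shared with replicate 2 (66.0% in the other megabases). The tests by width therefore have the same limit. Of the replicate 1 peaks in the narrowest quartile, 37 to 60 bp wide, 43 lay in sparse megabases and 814 in others, a ratio of 0.477 (95% exact interval 0.343 to 0.649, exact conditional test, p = 7.18e-07 after adjustment over 4 quartiles). The ratio was 0.695 (0.527 to 0.902) for widths of 60 to 83 bp, 0.896 (0.70 to 1.13) for 83 to 100 bp and 0.854 (0.663 to 1.08) for the widest quartile. The narrowest quartile differed from the other 3, which together had a ratio of 0.814 (p = 0.00154 by a two-sided Fisher's exact test, 0.00309 after adjustment). Narrow and high-scoring peaks were largely the same ones, since 59.5% of the narrowest quartile also belonged to the highest score quartile, so these are not 2 separate results. The split by score and width was chosen after the counts had been seen. Across the sparse megabases as a whole, replicate 1 peaks had a median score of 75.6 and a median width of 90 bp, against 78.1 and 82 bp in the others.

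**Figure D5:**
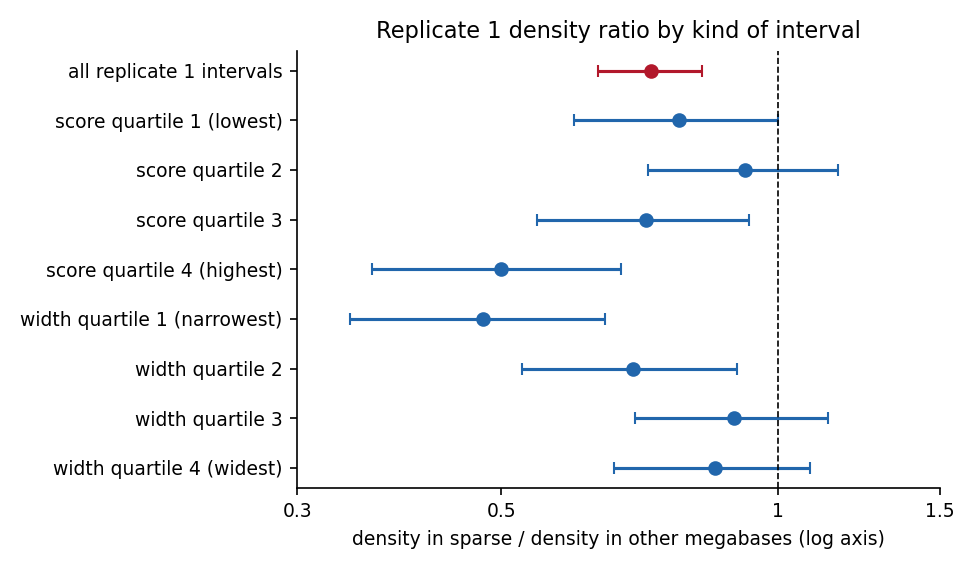
Density of replicate 1 peaks in sparse megabases divided by that in the other megabases (x axis, log scale, 95% exact intervals), for all peaks (red) and by quartile of replicate 1 score and width (blue). The highest score quartile and the narrowest quartile have the lowest ratios drawn, 0.50 and 0.477.

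Few of the replicate 1 peaks in sparse megabases were called again in replicate 2. Of the 255, 40 overlapped a replicate 2 peak by at least 1 bp, or 15.7% (95% exact binomial interval 11.4 to 20.7%), against 42.6% over all kept megabases and 44.7% (43.0 to 46.5%) in the others. The number of replicate 2 peaks, by which the megabases were chosen, bears on this share, so it is given without a test. The same holds for its values by quartile. By score it was 8.82% (3.31 to 18.2%) against 31.3% (28.0 to 34.6%) in the lowest quartile and 33.3% (20.0 to 49.0%) against 66.1% (62.7 to 69.3%) in the highest. By width it was 37.2% (23.0 to 53.3%) against 66.0% (62.6 to 69.2%) in the narrowest quartile and 12.2% (5.71 to 21.8%) against 37.0% (33.6 to 40.5%) in the widest.

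Replicate 2 peaks inside the sparse megabases had much the same typical score and width as elsewhere, with fewer at the extreme. The median score was 129 in both sets, and the median width was 60 bp against 61 bp. By quartiles of replicate 2 score, the density in the sparse megabases was 0.408, 0.433, 0.447 and 0.402 times that in the others from the lowest to the highest. The choice by low replicate 2 counts sets the level of these ratios. Their likeness over weak and strong calls is a description and was not tested. Scores of 1000 or more were held by 18 of the 4861 peaks, or 0.370% (95% exact binomial interval 0.220 to 0.585%), against 0.852% over all kept megabases and 0.875% (0.819 to 0.934%) in the others. Peaks wider than 200 bp made up 1.85% (1.49 to 2.27%) against 3.00% (2.90 to 3.11%). Replicate 2 peaks called again in replicate 1 were 40 of 4861, or 0.823% (0.589 to 1.12%), against 1.29% over all kept megabases. Adjacent replicate 2 peaks of 1 megabase lay a median of 28.3 kb apart in the sparse and 11.9 kb in the other megabases, and 3.07% (2.59 to 3.61%) against 5.55% (5.41 to 5.69%) of adjacent pairs lay within 500 bp. Fewer peaks in a megabase lie farther apart, so the choice bears on both comparisons and nothing is read from them. In replicate 1 the share of adjacent pairs within 500 bp was 11.0% (5.62 to 18.8%) in the sparse and 9.48% (8.07 to 11.0%) in the other megabases.

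Strong peaks were scattered over these megabases. The 18 replicate 2 peaks with a score of 1000 or more were in 17 different sparse megabases, and 7 of them were also called in replicate 1 (38.9%, 95% exact binomial interval 17.3 to 64.3%). Of all replicate 2 peaks with such scores in kept megabases, 28.5% were called in replicate 1, which lies within that interval. The highest score, 3100, was shared by the peaks at chr7:7249951-7250691 (741 bp) and chr7:34853052-34853285 (234 bp). Both were called in replicate 1, in megabases with 20 and 24 replicate 2 peaks. The next was at chr10:32422775-32423039, scoring 2472.26, in a megabase where replicate 1 had no peak. Those at chr8:72968321-72968704 (2209.88), chr17:6230440-6230636 (2019.25), chr3:93329093-93329606 (1548.18) and chr2:148690135-148690578 (1380.86) were called in both samples. Those at chr2:83877860-83878252 (1803.26), chr2:37593871-37594172 (1479.71) and chr5:17845504-17845772 (1377.62) were called in replicate 2 alone. Of these 10, 6 were thus called in both samples and 4 in replicate 2 alone.

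The 40 shared pairs lay in 38 sparse megabases and joined 40 different replicate 2 peaks. Shared replicate 1 peaks had a median score of 94.9 and a median width of 68 bp, and the 215 unshared ones 74.8 and 92 bp. The replicate 2 peak was the wider in 32 pairs. The pair with the best mean rank was that at chr7:34853067-34853246, with a replicate 1 score of 380.92, the highest in any sparse megabase, and the replicate 2 score of 3100. The next were at chr8:72968575-72968689 (scores 117 and 2209.88) and chr17:6230442-6230596 (101.08 and 2019.25). In the other 7 of the best 10 pairs, replicate 2 scores were 634.64 to 3100 and replicate 1 scores 65.2 to 239.5. They lay at chr7:95275993-95276049, chr7:7250540-7250706, chr19:3634511-3634649, chr16:59754993-59755035, chr6:56143602-56143648, chr2:148690304-148690394 and chr3:3519637-3519691. A high rank in replicate 2 did not imply one in replicate 1, since the peak from 7250540 on chromosome 7 had only rank 2906 of 3691 there.

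In the 5 sparse megabases with the most replicate 1 peaks, 24 of 27 had no partner in replicate 2 (88.9%, 95% exact binomial interval 70.8 to 97.6%), close to the 215 of 255 (84.3%) in all sparse megabases. Over all kept megabases, 42.6% of replicate 1 peaks had a partner. The choice by low replicate 2 counts bears on these shares, so they are a description. The megabase from 66000001 to 67000000 on chromosome 7 had the most, with 7 replicate 1 and 22 replicate 2 peaks. Only the replicate 1 peak from 66208870 to 66208923 (score 105.01) was shared, and the one from 66672568 to 66672679 (85.02) was 175 kb from any replicate 2 peak. The megabase from 74000001 to 75000000 on chromosome 13 had 6 and 21. Of its replicate 1 peaks, 5 lay between 74665915 and 74667609, with scores of 94.45 to 122.39 and widths of 74 to 166 bp. These 5 were 141 to 142 kb from the nearest replicate 2 peak, inside a stretch of 317 kb that held none. A second close group lay on chromosome 3 between 93015728 and 93021443, where 4 replicate 1 peaks with scores of 70.1 to 80.2 were 37.5 to 43.1 kb from the nearest replicate 2 peak. The fifth replicate 1 peak of that megabase (score 58.8) overlapped the strong replicate 2 peak that began at 93329093. The megabase from 13000001 to 14000000 on chromosome 6 had 5 replicate 1 peaks, of which 1 was shared, and that from 8000001 to 9000000 on chromosome 1 had 4, of which none was. In these 5 megabases together replicate 2 had 18 to 25 peaks each. Another 3 sparse megabases also had 4 replicate 1 peaks, with 23, 24 and 26 replicate 2 peaks, and were left out by the order of ties.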

How the data were processed

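YY1 ChIP-seq peaks of 2 ChIP samples were analysed. Per the file headers, the authors called the intervals of each list with MACS in Galaxy. The score is the MACS score as deposited, used within a list, and in the mean ranks of shared pairs. For the MACS version and settings, the aligner and the use of the input, nothing is given in the sources used here. Per the submitters' processing notes, the build is mm9. Coordinates are counted from 1. The numbering of the intervals had no gap in either list.

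Megabases were chosen as described in the report, with 2398 divided by 10 rounded down and the last bin taken as the last with a replicate 2 peak. Shares have 95% exact binomial intervals, and densities were compared by the exact conditional test. Named regions were, among sparse megabases, the 5 with the fewest peaks, the 3 on either side of the threshold, the stretches of 4 Mb or more, the 5 with the most replicate 1 peaks, and the 10 strongest replicate 2 peaks and shared pairs. The density test was tested on simulated counts. The members and lists were chosen with earlier results of these data known. Neither gene lists nor density per known base were used, for want of an mm9 reference. The software was SciPy 1.17.1, statsmodels 0.14.6, NumPy 2.4.6, matplotlib 3.10.9 and pandas 2.3.3 under Python 3.11.15.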

Additional observations from a re-analysis of the deposited data

How the results depend on the processing

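The lower replicate 1 density of the sparse megabases kept its direction and its side of the threshold under its 15 alternatives, with ratios of 0.608 to 0.828 and p up to 0.00313 in exact or quasi-Poisson tests. Leaving out each autosome in turn gave 0.705 to 0.758. Peaks shared with replicate 2 were counted in all of these, so none of them separates the ratio from the choice. The share of sparse megabases with no replicate 1 peak, 35.1% as reported, was 60.3% with bins of 500 kb, 13.3% with bins of 2 Mb and 64.0% with the 50% of replicate 1 that scored highest, by construction, since smaller bins or fewer peaks leave more bins empty. The shared fraction, 15.7%, was 21.3% with bins of 2 Mb, 24.3% for the sparsest 20% and 25.0% with the same part of replicate 1. The share that adjoins another sparse megabase, 55.6%, was 47.5% with bins of 2 Mb, 47.7% when the 50% of replicate 2 that scored highest chose the members, 47.8% for the sparsest 10% within each autosome, 42.9% for the sparsest 5% and 66.4% for the sparsest 20%, since a larger set has more neighbours. The cause of the other changes was not tested. Leaving out chromosome 7, breaking ties from the last chromosome, leaving out each autosome and the quasi-Poisson models were added after seeing the data. No paired analysis was possible because the ChIP samples form 1 group, and no value could be recomputed without a replicate, since replicate 2 chose the megabases and replicate 1 was the check. Without read counts, a megabase with few peaks cannot be called free of YY1.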
